A study of Mus musculus with 16 samples.

Results

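The 10 genes described here, Hmgcs1, Idi1, Fdps, Ggps1, Fdft1, Sqle, Cyp51, Msmo1, Hsd17b7 and Sc5d, encode enzymes of cholesterol and isoprenoid synthesis. They were chosen by symbol: a probe set belongs to the group where the array's annotation gives it 1 of these symbols and no other. This found 15 probe sets among 12422 that are not array controls, of which 13 passed the filter on low intensity, and each of the 10 genes kept at least 1. The series measured total RNA of mouse spinal cord on 16 single-colour arrays. The titles form 3 groups. Spastic cords (6 arrays) come from mice titled Spa in a series named for the spastic mouse, which carries a recessive mutation of Glrb, the beta subunit of the glycine receptor. They were titled 2 months (samples Spa1 and Spa2, female), 3 months (titled sev, male), 3+ months (male, a lower bound of age) and 6 months (titled M, female, 2 arrays). Control cords (8 arrays) are titled 9 and 12 months, a female and a male title at each age and 2 arrays for each, with no genotype in the labels. B6C3Fe, a hybrid mouse stock, was titled 1 month and male (2 arrays). No treatment is given. The labels do not explain sev or the M before 6 months, and do not name the genotype or strain of the controls.

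Pairs of arrays titled alike apart from a final a or b were averaged, leaving 5 spastic, 4 control and 1 B6C3Fe samples. Nothing in the labels says whether such arrays are separate animals, so p-values measure only the spread between these samples. Titled ages do not overlap between groups: B6C3Fe is the youngest, spastic cords follow and controls are the oldest, so group and age cannot be told apart. Glrb had a log2 intensity of 9.92 to 11.11 on the spastic arrays and 12.70 to 13.30 on all others. Titled sex matched the level of Xist on 14 of 16 arrays; the 2 spastic arrays titled male had Xist at 10.37 and 10.54 and the Y-linked Eif2s3y at the floor. By these genes every spastic array read as female and B6C3Fe as male, while the controls held both sexes. Sex thus cannot be told apart from group between spastic and B6C3Fe, and it is unequal between spastic and control. Median intensities ran from 289 to 383.6 per array, and the number of arrays limits the precision. Neuronal and oligodendrocyte markers were present in every group, with 0 of 9 and 0 of 11 genes at the floor throughout a group. In bulk tissue, fewer cells of a type and less RNA per cell cannot be told apart.

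Cholesterol is built from acetyl-CoA through mevalonate and a chain of isoprenoids to squalene, which is closed into a ring and trimmed to cholesterol. Its genes are switched on together by SREBP2 when membrane sterol is low, through sterol regulatory elements near their start sites that often lie beside CCAAT and Sp1 boxes. The brain and spinal cord make their own cholesterol, since lipoproteins do not cross the blood-brain barrier, and demand is highest while oligodendrocytes lay down myelin. In the order of the pathway, Hmgcs1 makes HMG-CoA, Idi1 isomerises the first isoprenoid unit, Fdps joins units to farnesyl diphosphate and Ggps1 extends it to geranylgeranyl diphosphate, a branch towards protein prenylation. Fdft1 commits farnesyl diphosphate to squalene and Sqle oxidises squalene. Cyp51, Msmo1, Hsd17b7 and Sc5d then act on the sterol ring.

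Promoter sequences are shown because genes of this pathway are known targets of SREBP2, and because the genes printed include some that passed a test between spastic and control cords and some that did not. RefSeq's table for GRCm38.p6 held 7 of the 10. The 250 bases before the start site are printed for 4 of them, 5′ to 3′ on the gene's own strand, as examples with the sterol element, with a looser form of it and without either. The windows are chr13:119690101-119690350 (plus strand) for Hmgcs1, chr13:14063489-14063738 (minus strand) for Ggps1, chr5:4104698-4104947 (minus strand) for Cyp51 and chr9:42264301-42264550 (minus strand) for Sc5d. Capitals mark the sterol element TCACNCCAC or its looser form TCACNNCA, which lies within the longer motif, and the box CCAAT, read as ATTGG on the other strand.
Hmgcs1: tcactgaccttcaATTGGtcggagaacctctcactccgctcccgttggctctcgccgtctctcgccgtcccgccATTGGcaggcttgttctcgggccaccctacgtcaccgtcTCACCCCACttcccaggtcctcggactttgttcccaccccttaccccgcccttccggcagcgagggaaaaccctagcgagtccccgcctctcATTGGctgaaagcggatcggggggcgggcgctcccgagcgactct
Ggps1: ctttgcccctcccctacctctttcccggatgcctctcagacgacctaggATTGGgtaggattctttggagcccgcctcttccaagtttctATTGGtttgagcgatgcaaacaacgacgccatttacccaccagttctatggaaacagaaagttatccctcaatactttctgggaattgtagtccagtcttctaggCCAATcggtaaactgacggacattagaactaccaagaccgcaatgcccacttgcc
Cyp51: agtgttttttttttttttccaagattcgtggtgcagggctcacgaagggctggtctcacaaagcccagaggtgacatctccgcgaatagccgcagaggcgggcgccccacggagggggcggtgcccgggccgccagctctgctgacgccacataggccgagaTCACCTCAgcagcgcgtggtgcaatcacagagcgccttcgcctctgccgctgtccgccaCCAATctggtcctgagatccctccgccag
Sc5d: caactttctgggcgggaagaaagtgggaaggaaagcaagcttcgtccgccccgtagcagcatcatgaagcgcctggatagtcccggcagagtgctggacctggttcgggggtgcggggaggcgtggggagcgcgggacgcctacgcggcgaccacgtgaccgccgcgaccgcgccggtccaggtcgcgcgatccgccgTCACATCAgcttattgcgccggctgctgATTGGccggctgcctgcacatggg

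Searched on both strands, TCACNCCAC occurred in 1 of the 7 members, Hmgcs1, where it lay 137 bases before the start, and in 1.05% of all 32851 promoters of the same length. The looser TCACNNCA, a form chosen after the sequences were read, occurred in 5 of 7, in Hmgcs1, Cyp51, Msmo1, Hsd17b7 and Sc5d, and in 11.4% of all promoters. In Cyp51 it lay 88 and in Sc5d 52 bases before the start. CCAAT occurred in 7 of 7 (33.8% of all), and the Sp1 box GGGCGG, left in lower case in the printed sequences, in 6 of 7 (32.7% of all). Ggps1 was the 1 member promoter without GGGCGG, and held 3 copies of the CCAAT box. A match describes these letters only, and the absence of 1 says nothing of the factor.

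Between spastic and control cords the enzymes that passed the test went in both directions. Fdps was 1.46-fold higher in the spastic cords, Ggps1 2.02-fold, Sc5d 1.68-fold and Msmo1 1.34-fold lower, and the other 6 did not pass the test. Across the 6427 probe sets tested by limma with an adjusted p under 0.05 as the threshold, 9.54% were higher and 9.79% lower, against 1 of 10 and 3 of 10 enzymes. The median difference of the enzymes was -0.26 on the log2 scale, with 4 above 0 and 6 below, and that of all probe sets was -0.02. The values by sample follow in pathway order. All levels below are log2 intensities, and levels of different genes are not comparable on an array.

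Hmgcs1, at the entry of the pathway, had a log2 intensity of 12.98 in the B6C3Fe sample. It was 12.39 and 12.19 in the 2-month spastic samples, 11.78 in the sev sample, 11.70 at 3+ months and 11.48 in the M sample of 6 months. The controls had 12.73 (9 months, female), 12.56 (9 months, male), 12.43 (12 months, female) and 11.86 (12 months, male). B6C3Fe lay above every other sample, the 2-month spastic samples above the 3 remaining spastic ones, and the 12-month male control within the spastic range. Spastic cords averaged 11.91 ± 0.37 (SD, n = 5) against 12.39 ± 0.38 (SD, n = 4). The difference of -0.48 (SE 0.20, 95% interval -0.93 to -0.04) did not pass limma's test after adjustment (adjusted p = 0.121). Without the 12-month male control it was -0.66 and passed (adjusted p = 0.0427), as did -0.53 from every array with the sample as a random block (adjusted p = 0.0386).

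Idi1, the isomerase of the isoprenoid unit, stood at 12.30 in B6C3Fe. Among spastic samples it was 11.84 and 11.59 at 2 months, 10.84 in sev, 11.00 at 3+ months and 11.05 in M. Controls were between these, at 11.45 and 11.63 for 9 months (female, male) and 11.22 and 11.16 for 12 months. Of the 2-month pair, 1 lay above all controls and 1 just below the 9-month male control, while the 3 later spastic samples lay below all 4 controls. The averages nearly coincided (11.26 ± 0.43, SD, n = 5, against 11.36 ± 0.22, SD, n = 4; difference -0.10, adjusted p = 0.755 by limma).

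Fdps, which makes the farnesyl diphosphate shared by cholesterol and prenylated proteins, was the 1 enzyme higher in spastic than in control cords by the test. Its level was 12.67 in B6C3Fe. Spastic samples had 12.44 and 12.15 at 2 months, 11.77 in sev, 11.68 at 3+ months and 11.83 in M. The controls had 11.55 and 11.73 at 9 months and 11.11 and 11.34 at 12 months (female, male). The spastic and control ranges touched only through the 9-month male control, which exceeded the 3+ sample. The difference was 0.54 (SE 0.17, 95% interval 0.18 to 0.91, adjusted p = 0.041 by limma). A second probe set of the kind marked _f_at, whose probes can match related sequences, gave 0.28 (adjusted p = 0.24 in the fit of every probe set). Other Fdps probe sets, 1 read under reduced design rules (_r_at) and 1 standard, were below the filter: they ran from 5.93 to 6.60 and from 5.93 to 7.76, at the floor on 6 and 2 arrays. The call of Fdps was lost without the 9-month female, the 12-month female or the 12-month male control, or without either of the 2-month spastic samples, with adjusted p of 0.0604 to 0.129 and differences of 0.43 to 0.58. It was also lost with quantile normalization (0.47, adjusted p = 0.0656), with no filter (adjusted p = 0.107) and with eBayes without a trend (adjusted p = 0.0625).

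Ggps1, at the branch towards geranylgeranyl groups, showed the largest difference that passed. B6C3Fe had 8.99. Spastic samples had 8.32 and 8.09 at 2 months, 7.97 in sev, 8.10 at 3+ months and 8.28 in M. The controls ranged higher, at 8.61 and 9.18 for 9 months and 9.13 and 9.73 for 12 months (female, male). All 5 spastic samples lay below all 4 controls, and spread less (8.15 ± 0.15, SD, n = 5, against 9.17 ± 0.46, SD, n = 4). The difference was -1.01 (SE 0.20, 95% interval -1.45 to -0.57, adjusted p = 0.00608 by limma), and its adjusted p stayed under 0.05 in 10 of 10 fits that left out 1 sample. The tested probe set is of the _f_at kind. A second, standard one had 8.98 in B6C3Fe, 6.72 to 8.04 in spastic and 8.34 to 9.08 in control samples, and its difference was -1.34 (SE 0.26, adjusted p = 0.00561 in the fit of every probe set). In the 9-month female control, array a minus array b was -1.57.

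Fdft1, squalene synthase, had the narrowest range of the 10, 0.84. It was 11.65 in B6C3Fe. Spastic samples had 11.33 and 11.20 at 2 months, 10.92 in sev, 11.16 at 3+ months and 11.02 in M, and controls 10.99, 11.07, 11.01 and 10.80 (9-month female and male, 12-month female and male). Only the 2-month pair and the 3+ sample stood above all controls. The difference was 0.16 (SE 0.10, adjusted p = 0.315 by limma).

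Sqle, squalene epoxidase and a rate-controlling step, had 12.22 in B6C3Fe. It was 11.94 and 11.88 in the 2-month spastic samples, 11.01 in sev, 10.77 at 3+ months and 11.40 in M. Controls had 11.42 and 11.50 at 9 months and 10.95 and 11.12 at 12 months (female, male). The 2-month pair was above all controls and the 3+ sample below them. The difference of group means was 0.15 (95% interval -0.34 to 0.65, adjusted p = 0.681 by limma).

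Cyp51, the sterol 14-demethylase, had 10.28 in B6C3Fe. Spastic samples had 9.94 and 9.65 at 2 months, 9.13 in sev, 8.90 at 3+ months and 9.33 in M. The controls lay close together, at 9.11 and 9.16 for 9 months and 9.03 and 8.96 for 12 months (female, male). The 2-month pair and M were above every control, and the 3+ sample below. The difference was 0.33 (SE 0.19, adjusted p = 0.254 by limma). It passed at 0.57 without the spastic samples titled male (adjusted p = 0.0434), which are the sev and 3+ samples.

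Msmo1, the methyl sterol oxidase that acts after Cyp51, had 11.29 in B6C3Fe. Spastic samples had 10.60 and 10.39 at 2 months, 10.19 in sev, 10.13 at 3+ months and 9.91 in M. Controls had 10.75 and 10.71 at 9 months and 10.65 and 10.54 at 12 months (female, male). Just 1 spastic sample, from a 2-month cord, exceeded 1 control, the 12-month male. The difference was -0.42 (SE 0.13, 95% interval -0.70 to -0.14, adjusted p = 0.0428 by limma). Its call was lost in 7 of 10 fits that left out 1 sample, namely each of the 4 controls and the sev, 3+ and M samples, with adjusted p of 0.0583 to 0.0993 and differences of -0.46 to -0.34. It was also lost with no filter (adjusted p = 0.0804), with eBayes without a trend (adjusted p = 0.0626) and without the sev and 3+ samples together (-0.36, adjusted p = 0.152).

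Hsd17b7, the sterol ketone reductase, had the widest range of the 10, 2.79. B6C3Fe had 8.72. Spastic samples had 7.83 and 7.96 at 2 months, 6.42 in sev, 5.93 (the floor) at 3+ months and 6.58 in M. Controls had 7.39 and 8.29 at 9 months and 8.68 and 8.52 at 12 months (female, male). The 3 later spastic samples lay below every control, while the 2-month pair lay above the 9-month female control. The difference was -1.28 (SE 0.43, 95% interval -2.21 to -0.34), which did not pass by limma (adjusted p = 0.0562). In that control array a minus array b was -1.89; with array b in place of the mean the difference was -1.51 and passed (adjusted p = 0.0167). It also passed without the 9-month female control, -1.55 (adjusted p = 0.0382), and without 1 or the other 2-month spastic sample, -1.50 (adjusted p = 0.0366) and -1.53 (adjusted p = 0.0231). Titled sex in the model gave -1.33 (adjusted p = 0.0456), though that title did not match Xist in the sev and 3+ samples. Every array with the sample as a random block gave -1.32 (adjusted p = 0.0264). The size depended on the floor and on the samples: it was -0.60 with the floor at the 40th percentile, which passed (adjusted p = 0.0164), -1.52 with it at the 10th (adjusted p = 0.0826) and -0.76 without the sev and 3+ samples (adjusted p = 0.235).

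Sc5d, the desaturase near the end of the pathway, had 9.68 in B6C3Fe. Spastic samples had 9.35 and 9.29 at 2 months, 9.26 in sev, 8.47 at 3+ months and 9.23 in M. Controls had 9.88 and 9.73 at 9 months and 10.18 and 9.68 at 12 months (female, male). The groups did not overlap, and the 3+ sample stood well below the other 4 spastic samples. The difference was -0.75 (SE 0.18, 95% interval -1.15 to -0.35, adjusted p = 0.0168 by limma), and it was lost without the 12-month female control (-0.64, adjusted p = 0.0578). The tested probe set is of the _i_at kind, which holds fewer probes than planned. A second one (_f_at) gave -0.97 (SE 0.31, adjusted p = 0.0462 in the fit of every probe set), with 7.53 to 9.32 in spastic and 8.86 to 9.75 in control samples.

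**Figure D1:**
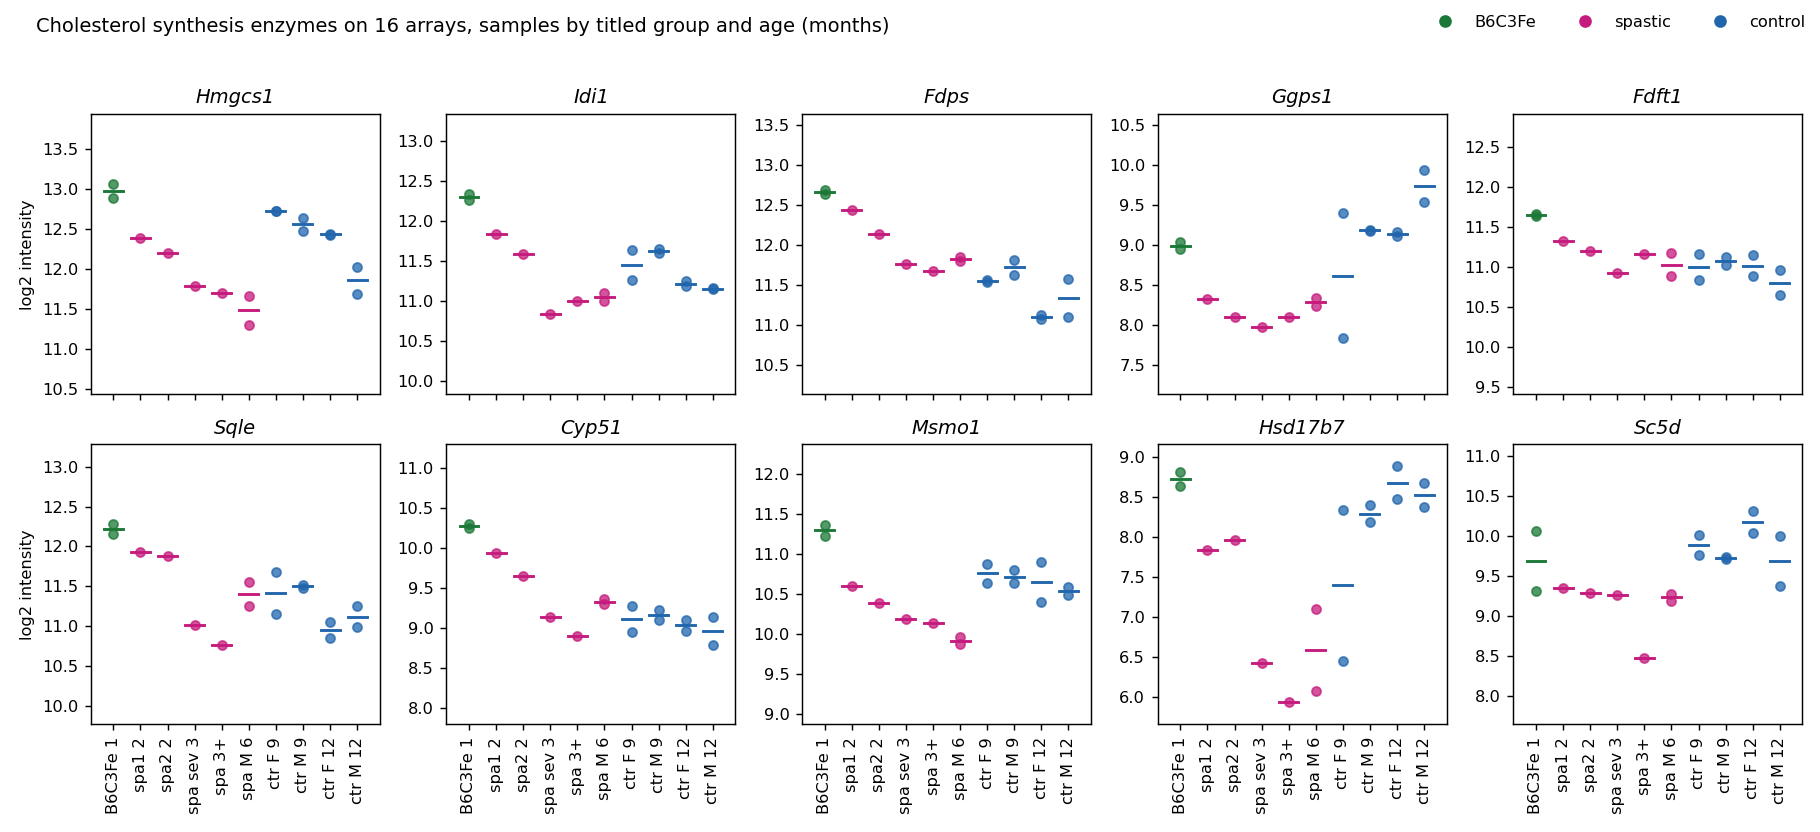
Each panel plots 1 of the 10 enzymes, with log2 intensity on the vertical axis (all panels span the same number of log2 units) and the 10 samples on the horizontal axis, named by titled group and age in months. Points are single arrays and bars the mean of each sample; green is B6C3Fe, magenta spastic and blue control, F and M beside ctr are the titled sex, and M beside spa is the uninterpreted letter of the title. The tested probe set of each gene is shown. By it, Ggps1 and Sc5d have all 5 spastic samples below all 4 controls, and for Hsd17b7 array a minus array b of the 9-month female control is -1.89.

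By the tested probe sets, Ggps1 and Sc5d were the 2 of 10 enzymes with every spastic sample below every control, a pattern that 10.2% of all probe sets tested showed. The second Ggps1 probe set showed it too. That of Sc5d overlapped, with 9.32 in Spa1 and 8.86 in the 12-month female control. With the spastic samples in the order of their titled ages, 9 of the 10 enzymes, all but Ggps1, had both 2-month samples above the 3 others by the tested probe set. Of all probe sets, 14.4% had this order. The second Ggps1 probe set did show it (7.48 and 8.04 against 6.72 to 7.32). The second Sc5d probe set did not, with 8.07 in Spa2 below 8.43 in sev and 8.69 in M. That order of ages has 1 or 2 samples at each, and the 3+ age is only a lower bound. Relative to its own mean over the 10 samples, the median enzyme stood at 0.20 and 0.13 in the 2-month spastic samples, with 8 and 6 of the 10 above their mean. It stood at -0.37 in sev with 0 above, at -0.48 at 3+ months with 1 above and at -0.30 in M with 1 above. Controls were at -0.02 and 0.21 at 9 months and 0.01 and -0.28 at 12 months (female, male). The B6C3Fe sample stood at 0.79, with all 10 above their mean. The median of all probe sets tested lay between -0.02 and 0.03 in every sample.

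**Figure D2:**
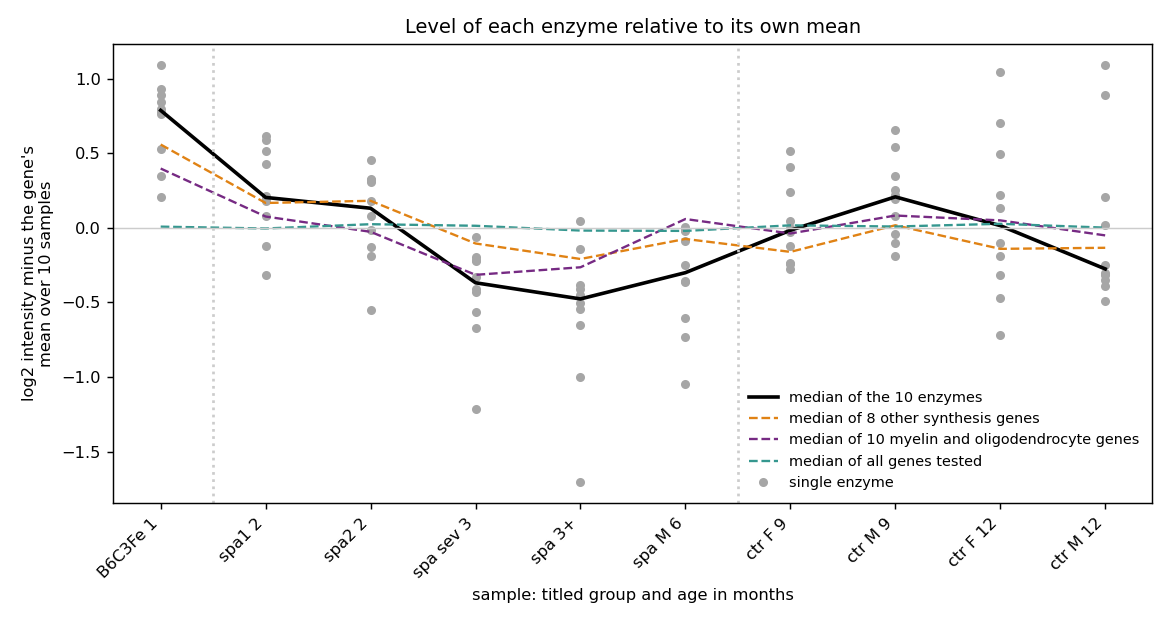
The vertical axis is log2 intensity minus the gene's own mean over the 10 samples, and the horizontal axis holds the samples in the order B6C3Fe, spastic and control, named as in the plot of single enzymes; dotted lines part the groups. Grey points are the 10 enzymes, and lines join medians: black for the enzymes, orange for 8 other synthesis genes, purple for 10 myelin and oligodendrocyte genes and teal for all genes tested. The enzymes' median is 0.79 in B6C3Fe, 0.20 and 0.13 in the 2-month spastic samples and -0.48 at 3+ months, while that of all genes tested stays between -0.02 and 0.03.

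The comparison of B6C3Fe with the other groups sets the youngest cord beside them, and it rests on 1 sample that is assumed to vary like the others. Stock and age cannot be told apart in it, nor can sex where the other group is spastic. B6C3Fe was the highest of the 10 samples for 8 enzymes; the exceptions were Ggps1, highest in the 12-month male control, and Sc5d, highest in the 12-month female control. It lay above all 4 controls for those 8, against 27.7% of all probe sets, and above all 5 spastic samples for 10 of 10, against 26.9%. Differences from control were largest for Fdps (1.24, SE 0.28, 95% interval 0.63 to 1.85), Cyp51 (1.21, SE 0.31), Sqle (0.97) and Idi1 (0.93). None of these passed by limma, with adjusted p of 0.0639 for Fdps, 0.0907 for Cyp51, 0.234 for Sqle and 0.180 for Idi1. Fdft1 (0.68, adjusted p = 0.0877), Msmo1 (0.63, adjusted p = 0.180), Hmgcs1 (0.58, adjusted p = 0.436) and Hsd17b7 (0.50, adjusted p = 0.779) also had values above 0, and Ggps1 and Sc5d both had -0.18 (adjusted p = 0.839 and 0.816). Their second probe sets had values above 0, 0.30 for Ggps1 (adjusted p = 0.794) and 0.07 for Sc5d (adjusted p = 0.964 in the fit of every probe set), so neither direction is settled. The count of enzymes higher in B6C3Fe by the test was 0 of 10, against 0.14% of all probe sets, and 1015 of 6427 probe sets had an unadjusted p under 0.05. The enzymes' median difference was 0.65 and that of all probe sets 0.00.

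Spastic cords set against B6C3Fe share their spastic samples with the first comparison and the B6C3Fe sample with the second. All 10 enzymes had differences below 0, with a median of -0.86 against -0.02 for all probe sets. Msmo1 fell by 1.05 (SE 0.21, 2.07-fold, adjusted p = 0.0321 by limma), the 1 enzyme that passed, where 0.545% of all probe sets were lower. Its call was lost without the sev sample (-1.03, adjusted p = 0.061) and without the 9-month male control (-1.05, adjusted p = 0.0532). Hsd17b7 had -1.78 (adjusted p = 0.201), Hmgcs1 -1.07 (adjusted p = 0.122), Idi1 -1.04 (adjusted p = 0.111), Cyp51 -0.89 (adjusted p = 0.151) and Ggps1 -0.84 (adjusted p = 0.201). Sqle had -0.82 (adjusted p = 0.260), Fdps -0.70 (adjusted p = 0.200), Sc5d -0.56 (adjusted p = 0.337) and Fdft1 -0.52 (adjusted p = 0.132). Msmo1 was the 1 enzyme lower in spastic cords than in both references by the test. Fdps had a level between the other groups, above control by the test and below B6C3Fe by a difference that did not pass.

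**Figure D3:**
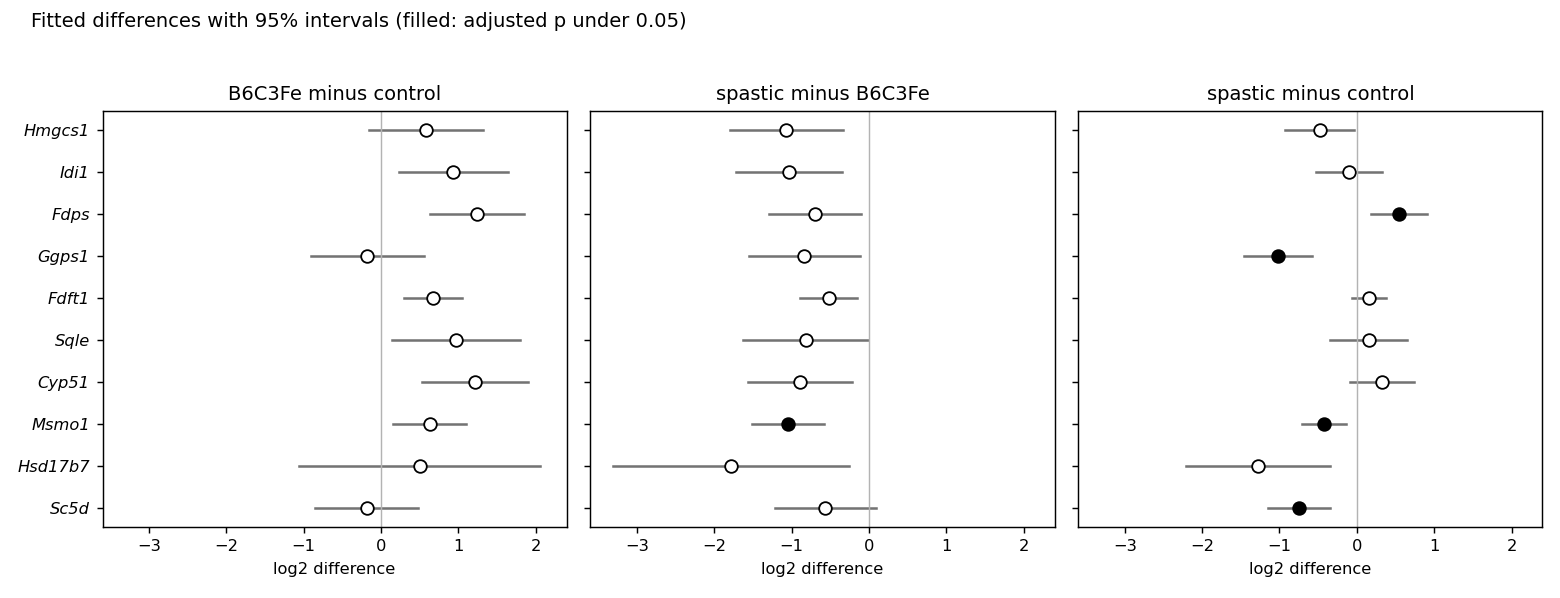
Each panel plots the fitted log2 difference of 1 comparison on the horizontal axis for the 10 enzymes in pathway order, with its 95% interval as a line and a filled circle where the adjusted p is under 0.05. B6C3Fe minus control has 8 of 10 values above 0 and none filled, spastic minus B6C3Fe has all 10 below 0 with Msmo1 filled at -1.05, and spastic minus control has 4 filled, Fdps at 0.54 and Ggps1, Msmo1 and Sc5d below 0; the panels share samples.

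Among the controls, 12-month cords were set against 9-month cords, 2 samples each. By limma 0 of 10 enzymes passed, and 0% of all probe sets did, while 336 had an unadjusted p under 0.05. The enzymes had 3 values above 0 and 7 below, with a median of -0.14 against -0.01 for all probe sets. Hmgcs1 (-0.50), Fdps and Sqle (-0.42 each) and Idi1 (-0.35) had the lowest values, and Hsd17b7 (0.76) and Ggps1 (0.54) the highest. The second Sc5d probe set had -0.15 where the tested one had 0.12. Adjusted p of the 10 ran from 0.926 to 0.975.

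Since age and group go together, the spastic difference was also fitted with log2 of titled age in the model and the B6C3Fe sample counted as a control. All 10 enzymes then had differences below 0 and 5 of 10 passed by limma, against 4.93% of all probe sets that were lower: Msmo1 (-0.79, adjusted p = 0.00293), Hmgcs1 (-0.88, adjusted p = 0.0147), Ggps1 (-0.90, adjusted p = 0.0246), Idi1 (-0.65, adjusted p = 0.0329) and Hsd17b7 (-1.64, adjusted p = 0.0375). Fdps turned to -0.13 and Sc5d, at -0.67, no longer passed (adjusted p = 0.0539). This fit takes B6C3Fe and the controls as 1 line along age, and the youngest point on it is the 1 B6C3Fe sample.

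The log2 ratio of the 3-prime to the 5-prime Pcx probe set, a measure of how much of the RNA's 5-prime end was read, was 2.38 ± 0.38 (SD, n = 5) in spastic, 1.73 ± 0.22 (SD, n = 4) in control samples and 1.78 in B6C3Fe. It was highest in the 3+ sample (2.98), where the median enzyme was lowest. The 2-month spastic samples had 2.18 and 2.00, below sev (2.24), the 3+ sample and both arrays of M (2.50 and 2.53). Titled age and this ratio thus part the spastic samples in the same way, and the share of each in the enzymes' values was not tested. Between control and spastic arrays, the same ratio of the other 3 control genes did not rise as that of Pcx did. It ran from 0.02 to 1.41 on spastic and 0.52 to 1.90 on control arrays for the transferrin receptor, from -0.67 to -0.10 and -0.64 to 0.99 for Gapdh, and from -0.56 to 0.71 and -0.45 to 1.27 for beta-actin. Beta-actin was far lower on the B6C3Fe arrays, at -3.29 and -1.21. Array a of the 9-month female control, the lower one for Ggps1 and Hsd17b7, had a Pcx ratio of 2.72 and array b 1.31. The same array a gave the control ends of 0.52, 0.99 and 1.27 above. The remaining control arrays had transferrin receptor ratios of 1.42 to 1.90, and the highest spastic one was 1.41. The part of RNA quality in these ratios was not tested. With the Pcx ratio in the model 0 of 10 enzymes passed by limma, against 0.358% of all probe sets. Ggps1 had -0.91 (adjusted p = 0.159), Sc5d -0.28 (adjusted p = 0.531), Msmo1 -0.22 (adjusted p = 0.559), Hsd17b7 0.01 (adjusted p = 0.994) and Fdps 0.82 (adjusted p = 0.114). The number of all probe sets called fell from 1242 to 23 in that fit.

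**Figure D4:**
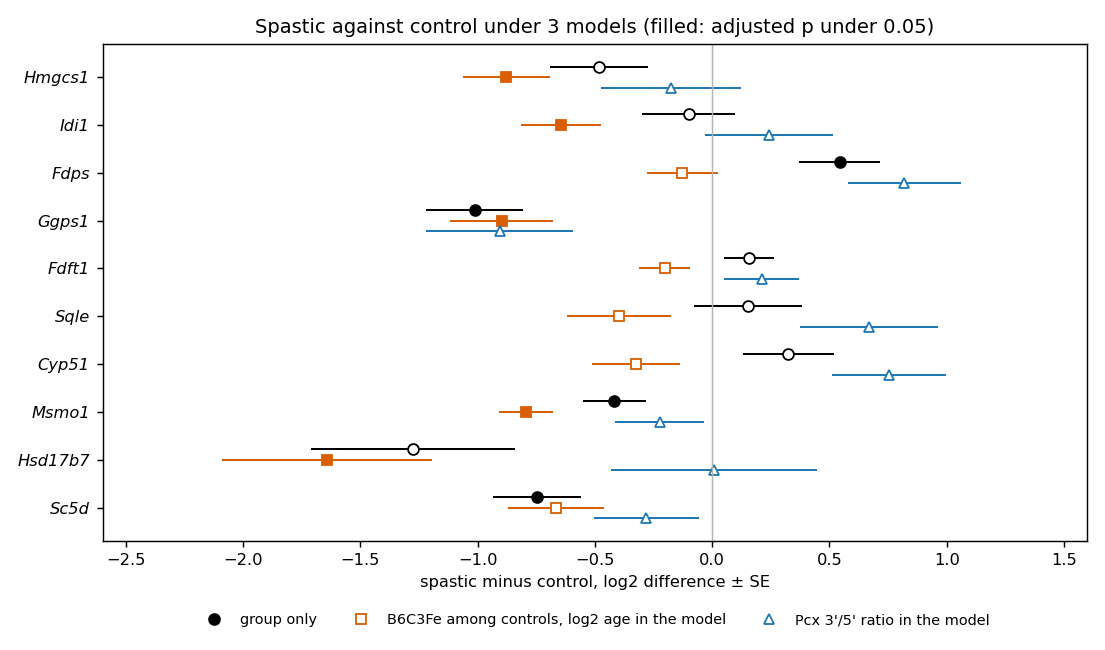
The horizontal axis is the spastic minus control log2 difference with its SE as a line, for the 10 enzymes in pathway order, under group only (circles), log2 of age with B6C3Fe as a control (squares) and the Pcx ratio in the model (triangles). Filled symbols have an adjusted p under 0.05. Ggps1 has similar values under all 3 (-1.01, -0.90 and -0.91), Hsd17b7 runs from -1.64 to 0.01, and Fdps turns from 0.54 to -0.13 with age in the model.

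Of 14 other cholesterol synthesis genes listed, 8 were on the array and tested. Between spastic and control cords 0 of 8 passed in either direction, where 9.54% of all probe sets were higher and 9.79% lower. Their median difference was 0.09. By the smallest p, Mvd, which makes the first isoprenoid unit, had 0.31 (adjusted p = 0.372 by limma), and Dhcr7, a final reductase, had 0.19 (adjusted p = 0.578). Against control, B6C3Fe had a median of 0.70 for these genes, from -0.01 for Lbr to 1.42 for Lss (adjusted p = 0.141 by limma). It lay above all 4 controls for 7 of 8, against 27.7% of all probe sets. It lay above all 5 spastic samples for 5 of 8, against 26.9%. Both 2-month spastic samples were above the other spastic ones for 3 of 8, against 14.4%.

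Of 5 tested for sterol regulation and uptake, 3 rose and 0 fell in spastic against control cords, where 9.54% of all probe sets rose and 9.79% fell. Lrp1, a lipoprotein receptor, rose by 0.36 (adjusted p = 0.0452 by limma), Srebf1, the SREBP1 gene, by 0.35 (adjusted p = 0.0323) and Mbtps1, the protease that releases SREBPs, by 0.32 (adjusted p = 0.0249). Insig1, which holds SREBPs in the endoplasmic reticulum, was at the floor on every array. Of 13 genes of efflux, storage and turnover, Abca2 (0.65, adjusted p = 0.00338), a lipid transporter of oligodendrocytes, and the sterol carrier Osbp (0.32, adjusted p = 0.0283) rose. The cholesterol exporter Abca1 (-0.53, adjusted p = 0.0254) and the oxysterol-binding Osbpl1a (-0.49, adjusted p = 0.021) fell. Of 6 genes in other isoprenoid branches 0 passed; Coq7, of coenzyme Q synthesis, had 0.34 (adjusted p = 0.0747) and Rabggta, which attaches geranylgeranyl groups to Rab proteins, 0.91 (adjusted p = 0.109). Of 11 fatty acid synthesis genes, Me1, a source of NADPH, fell by 0.52 (adjusted p = 0.0121) and Fasn, fatty acid synthase, by 0.36 (adjusted p = 0.0499).

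Oligodendrocytes make large amounts of cholesterol for myelin. The log2 of the summed intensities of 11 oligodendrocyte and myelin genes was 16.47 in B6C3Fe, 15.71 to 16.35 in spastic and 15.99 to 16.20 in control samples. The brightest genes weigh most in this sum, and none of the 11 was at the floor throughout a group. The median of the 10 tested, relative to their means, was 0.40 in B6C3Fe, 0.08 and -0.03 in the 2-month spastic samples, -0.32 in sev, -0.26 at 3+ months and 0.06 in M. The median of the enzymes was also low in sev and at 3+ months. In M the enzymes were low (-0.30) and the myelin and oligodendrocyte genes were not (0.06). Between spastic and control cords 1 of the 10 rose (Sox10, 0.42) and 2 fell (Ugt8a, -3.61, and Car2, -0.50). Ugt8a ran from 5.93, the floor, to 8.41 in spastic and from 9.36 to 11.00 in control samples. The size of its difference thus depends in part on the floor. Both 2-month spastic samples were above the other spastic ones for 6 of the 10, against 14.4% of all probe sets. B6C3Fe was higher than control for 2 of the 10, against 0.14% of all probe sets. These were Mal (1.52, adjusted p = 0.0152 by limma) and Cldn11 (0.93, adjusted p = 0.0177), both myelin membrane proteins. Spastic cords were lower than B6C3Fe for 3 of the 10, Ugt8a, Mal and Cldn11, against 0.545%. B6C3Fe lay above all 4 controls for 7 of the 10, against 27.7%, and above all 5 spastic samples for 8, against 26.9%. Against 9.54% of all probe sets that rose and 9.79% that fell, the genes that rose and fell in spastic cords were 2 and 0 of 5 for immature oligodendrocytes, 1 and 2 of 8 for astrocytes, 0 and 3 of 9 for neurons and 0 and 2 of 7 for microglia. They were 0 and 0 of 3 for Schwann cells and 5 and 0 of 7 for endothelial and mural cells. The part of these cell types in the enzymes' values was not tested.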

How the data were processed

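The authors' deposited values are linear intensities, 1 for each of 12488 probe sets on each of 16 arrays. Their mean after trimming 2% at each end lay at 800.4 to 800.5 on every array, so they were taken as scaled and not normalized again. No source used here names the software behind them. Intensities under the 20th percentile of all values (60.9) were raised to it before taking log2; 14.7% to 24.1% of values per array lay at or under that floor, which understates differences of dim genes. Control probe sets (66) were left out. Probe sets with a mean log2 value above the 40th percentile (7.62) were tested, the highest-mean one per gene, which left 6427. Of 10833 probe sets with 1 symbol, 10817 had their Entrez ID in RefSeq's GRCm38.p6 table, used for names; 396 had several symbols and 1193 none.

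Arrays a and b of a title were averaged, and 10 samples were fitted with limma 3.58.1 in R 4.3.3 (lmFit, eBayes with a trend), with group as the only term and 1 shared spread. P-values are 2-sided and adjusted by Benjamini-Hochberg over all 6427. Titled sex was left out because 2 spastic arrays did not match it. Values of second probe sets come from a fit of every probe set. Each of the 10 enzymes was named with every probe set. From each other list up to 4 genes called in spastic or B6C3Fe against control were named, by size, or, where 0 were called, up to 2 with the smallest p; Lbr and Lss, the ends of a range, were named after their values were seen. Members and lists were chosen with earlier results of these data known. Of the fits, only spastic minus control with group as the only term was tested on simulated data. Those data had independent normal noise of the fitted spread, as the model assumes. Alternatives changed the floor, filter, normalization, probe set rule, replicate unit, covariates, moderation and samples; 1 of them, array b alone for the 9-month female control, was chosen after seeing the data.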

Additional observations from a re-analysis of the deposited data

Results flagged for a closer look

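Sc5d in the 3+ month spastic sample had a log2 intensity of 8.47, and the nearest of the other 4 spastic samples had 9.23. The gap made up 0.86 of the range of the 5. The second Sc5d probe set was also lowest in that sample, at 7.53, and the sample had the highest Pcx ratio, 2.98; the part of that ratio in the value was not tested. This is past Dixon's critical value at the 95% level, which by its definition chance passes in about 1 group in 20. Of 20 groups of values examined, 1 stood apart.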

How the results depend on the processing

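Counts of all probe sets and of enzymes called were recomputed for each alternative. For spastic minus control (1242 and 4 enzymes), they were 23 and 0 with the Pcx ratio in the model, 654 with log2 of age and B6C3Fe as a control, 739 leaving out the male-titled spastic samples, and 712 to 1280 leaving out each sample, the lowest without the 12-month female control. Enzymes called were 2 with no filter and 2 with eBayes without a trend, and 1 to 4 leaving out each sample. For spastic minus B6C3Fe (132 and 1), they were 288 with no filter, 368 and 4 with the sample as a random block, 622 and 6 with the letter as a replicate block, 19 and 0 with the Pcx ratio, 80 and 0 without a trend, 211 without array a of the 9-month female control, and 66 to 173 and 0 to 1 leaving out each sample. They were 66 without sev, 70 without the 9-month male control, 75 without Spa1, 86 without M and 87 without the 12-month male control. For B6C3Fe minus control (43 and 0), they were 208 with no filter, 335 and 4 with the random block, 673 and 6 with the replicate block, 25 with titled sex, 95 and 2 with the Pcx ratio, 26 without a trend and 20 to 76 leaving out each sample. They were 76 without the 3+ sample, 20 without the 9-month male and 27 without the 12-month female control, and 25 without Spa1, sev or the 12-month male control. For 12 minus 9 months (0), they were 19 with no filter, 2 with the random block and 8 with the replicate block. The random and replicate blocks count every array. The replicate block fit has a term for the letter and takes the 2 arrays of a title as independent samples. Where such arrays are repeats of 1 animal, its counts are too high. The letters did not pair the arrays: the differences of array a minus array b correlated at -0.04 to 0.16 between titles, over 0.1 in 1 of 15 pairs of titles. Within a title the consensus correlation was 0.25.

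Directions turned in these cases, and the cause was not tested. With the Pcx ratio, spastic minus control was 0.0072 for Hsd17b7 and 0.24 for Idi1. With log2 of age and B6C3Fe as a control it was -0.40 for Sqle, -0.32 for Cyp51, -0.20 for Fdft1 and -0.13 for Fdps. Idi1 was 0.13 leaving out both male-titled spastic samples, 0.0048 without the sev one, and -0.24 to 0.0048 over the fits that left out 1 sample. B6C3Fe minus control was 0.005 for Sc5d with titled sex, and -0.36 to 0.0137 for Ggps1 leaving out samples, the highest without the 12-month male control. The few arrays and the floor limit what these values can show.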
